A study of Mus musculus with 5 samples.

Results

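Neutrophil-attracting and homeostatic CXC chemokine genes were followed in 5 RNA-seq libraries of cells sorted from mouse EO771 breast tumours. They were chosen by name, with earlier results of these data known. They are Cxcl1, Cxcl2, Cxcl3 and Cxcl5, which attract neutrophils, and Cxcl12, Cxcl14 and Cxcl16, which many tissues make at rest. All 7 were found by Ensembl identifier among the 46983 genes listed in the count files, and all 7 passed the filter on low counts. EO771 is a mouse mammary carcinoma line, grown here in the mammary gland. Per the labels, the Treg-ablated group (2 libraries) came from tumours of mice given diphtheria toxin, in 2 doses of 50 µg per kg, to remove regulatory T (Treg) cells, and was sorted on day 4. The control group (3 libraries) came from untreated tumours, so the toxin itself and the loss of Treg cells cannot be told apart. Both groups were C57/BL6 mice, and both were sorted as tumour-associated macrophages (CD45+ CD11B+ Ly6G- F4/80+). The allele that makes Treg cells sensitive to the toxin, the age of the mice and any pooling of tumours are not given in the sources used here. Nothing says that libraries of a group came from separate mice, so the p-values reflect the spread from library to library, which could be purely technical. The study asked what Treg ablation does to tumour macrophages.

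CXC chemokines are small secreted proteins that steer leukocytes through G protein-coupled receptors. Those with a glutamate-leucine-arginine (ELR) motif before the first cysteines act on CXCR2, the receptor that calls neutrophils out of the blood, and their genes are classical targets of NF-κB, the transcription factor downstream of IL-1, TNF and IL-17. Cxcl12 acts on CXCR4 and is held in place by stromal cells, Cxcl16 is made as a membrane protein by macrophages and dendritic cells and acts on CXCR6, and Cxcl14 is made mainly by epithelium and fibroblasts.

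The ELR genes Cxcl1, Cxcl2, Cxcl3 and Cxcl5 share 1 gene cluster. In the count files (GRCm38) it ran from 90759360 to 90905938 on chromosome 5, a span of 146579 bases, in the order Cxcl5, Ppbp, Pf4, Cxcl3, Cxcl15, Cxcl1 and Cxcl2, with 4 predicted genes between them. The homeostatic genes lay elsewhere: Cxcl12 on chromosome 6, Cxcl14 on chromosome 13 and Cxcl16 on chromosome 11. Promoter sequences from RefSeq (GRCm38) were found for 5 of the 7 genes. The 150 bases before the RefSeq start of each are shown 5′ to 3′ in the gene's orientation, because the 3 ELR genes among them carry the same stretch there. Capitals mark GGGAATTTCCC, the longest run that these 3 have in common before the start, which has the form of an NF-κB site.
Cxcl1 (chr5:90891095-90891244, plus strand): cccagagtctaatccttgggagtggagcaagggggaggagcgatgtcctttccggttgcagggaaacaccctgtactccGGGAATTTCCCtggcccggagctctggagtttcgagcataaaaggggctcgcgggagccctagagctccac
Cxcl2 (chr5:90903749-90903898, plus strand): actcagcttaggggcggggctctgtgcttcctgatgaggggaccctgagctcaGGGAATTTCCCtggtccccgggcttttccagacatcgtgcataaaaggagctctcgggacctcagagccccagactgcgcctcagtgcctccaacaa
Cxcl3 (chr5:90785951-90786100, plus strand): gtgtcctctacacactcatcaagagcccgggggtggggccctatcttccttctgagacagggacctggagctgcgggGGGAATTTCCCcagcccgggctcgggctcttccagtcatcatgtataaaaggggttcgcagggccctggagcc
Cxcl12 (chr6:117168385-117168534, plus strand): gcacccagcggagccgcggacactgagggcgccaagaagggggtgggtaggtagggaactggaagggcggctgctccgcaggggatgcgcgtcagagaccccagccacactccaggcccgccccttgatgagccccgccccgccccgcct
Cxcl14 (chr13:56296552-56296701, minus strand): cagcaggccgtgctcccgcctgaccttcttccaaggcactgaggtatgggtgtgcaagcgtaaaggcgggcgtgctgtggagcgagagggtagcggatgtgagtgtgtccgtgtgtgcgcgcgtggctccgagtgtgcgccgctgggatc

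Motifs were searched on both strands of a 300-base window, 250 bases before to 50 after the RefSeq start, and compared with all 32851 RefSeq promoter windows of that length. The letters GGGAATTTCCC stood in the windows of Cxcl1, Cxcl2 and Cxcl3, beginning at positions −67, −69 and −75 from the gene starts in the count files. They stood in 14 of all windows, or 0.0426%. A TATA-like stretch, ATAAAAG, followed in the same 3 genes at −30, −29 and −31, and was present in 5.42% of all windows. Neither stretch matched in the windows of Cxcl12 or Cxcl14. GGGCGG, the GC box, matched 5 times for Cxcl12, 3 times for Cxcl14 and 1 time for Cxcl2, and was present in 35.7% of all windows. TTCNNNGAA, the GAS element of STAT proteins, matched for Cxcl14 alone of the 5 genes, and in 8.30% of all windows. TGANTCA, the AP-1 site, matched for none of the 5 and for 7.81% of all windows. The motifs were chosen with the sequences in view, and a match is a description of the letters only.

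Some markers of lymphocytes, macrophages and fibroblasts also differed between the groups, in both directions, and their part in the results was not tested. In these bulk libraries, fewer cells of a type and less RNA per cell cannot be told apart. Values are CPM, counts scaled to 1000000 per library after TMM scaling, and library totals ran from 13122668 to 20156835 counts. The genes behind the gate were low. Over the 5 libraries the CD45 gene Ptprc lay between 22.1 and 33.0 CPM, the CD11b gene Itgam between 12.2 and 19.0 CPM, and the F4/80 gene Adgre1 between 5.73 and 9.87 CPM, with Adgre1 lower after ablation (log2 fold change −0.74, adjusted p = 0.00275). The summed level of 22 fibroblast markers was 21884 to 24286 CPM after ablation and 23646 to 27660 CPM in controls. Of the 22, 11 were lower and 1 higher (Dcn), and 6 were lower without control replicate 2. Most of each sum came from Col3a1 (7467 to 9556 CPM over the 5 libraries) and Fn1 (7850 to 11750 CPM). Col1a1 lay between 464 and 760 CPM and Dcn between 719 and 990 CPM. By contrast, Fap, Pdpn and Pdgfrb reached at most 2.58, 8.41 and 16.4 CPM. The levels of Col3a1, Col1a1 and Dcn go against the label of a macrophage sort, and no change is assigned to a cell type. The summed level of 21 mature macrophage genes was 238 to 255 CPM after ablation and 404 to 422 CPM in controls, with 13 of 18 tested lower and the other 5 not passing. Of 15 T and NK cell markers 12 were higher. The 15 summed to 94.0 to 98.4 CPM after ablation and 25.0 to 31.0 CPM in controls. Of 7 B cell markers 5 were higher. The 7 summed to 56.3 to 71.2 CPM after ablation and 15.8 to 19.0 CPM in controls. Beside the counts of these marker lists, the shares over all genes tested were 13.5% higher and 12.3% lower.

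The ELR chemokine genes rose after Treg ablation and the homeostatic gene Cxcl14 fell, while Cxcl12 and Cxcl16 did not pass the test. Values are given for Treg-ablated replicates 1 and 2 and control replicates 1, 2 and 3, and tests are edgeR's quasi-likelihood test with Benjamini-Hochberg adjustment over all 14580 genes tested. Of the 7 genes, 4 passed as higher and 1 as lower at an adjusted p under 0.05, whereas 13.5% of all genes tested passed as higher and 12.3% as lower. The 7 were chosen with earlier results of these data known, so this comparison describes them and is not a test. Cxcl3 passed the low-count filter through the Treg-ablated libraries alone, and without it 3 of 6 passed as higher. The filter fixed the separation of its groups too. For the other 6 genes the groups did not overlap, as for 52.5% of all genes tested. The Treg-ablated libraries lay wholly above the controls for the other 3 ELR genes, as for 26.9% of all genes tested, and wholly below them for the 3 homeostatic genes, as for 25.6%. In edgeR's test against a fold of 1.5 in place of no change, 0 of the 7 passed, and 2 had an unadjusted p under 0.05 (Cxcl3 and Cxcl5). The median log2 fold change was 0.64 over the ELR genes other than Cxcl3 and −0.41 over the homeostatic genes, against −0.0062 over all genes tested.

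**Figure D1:**
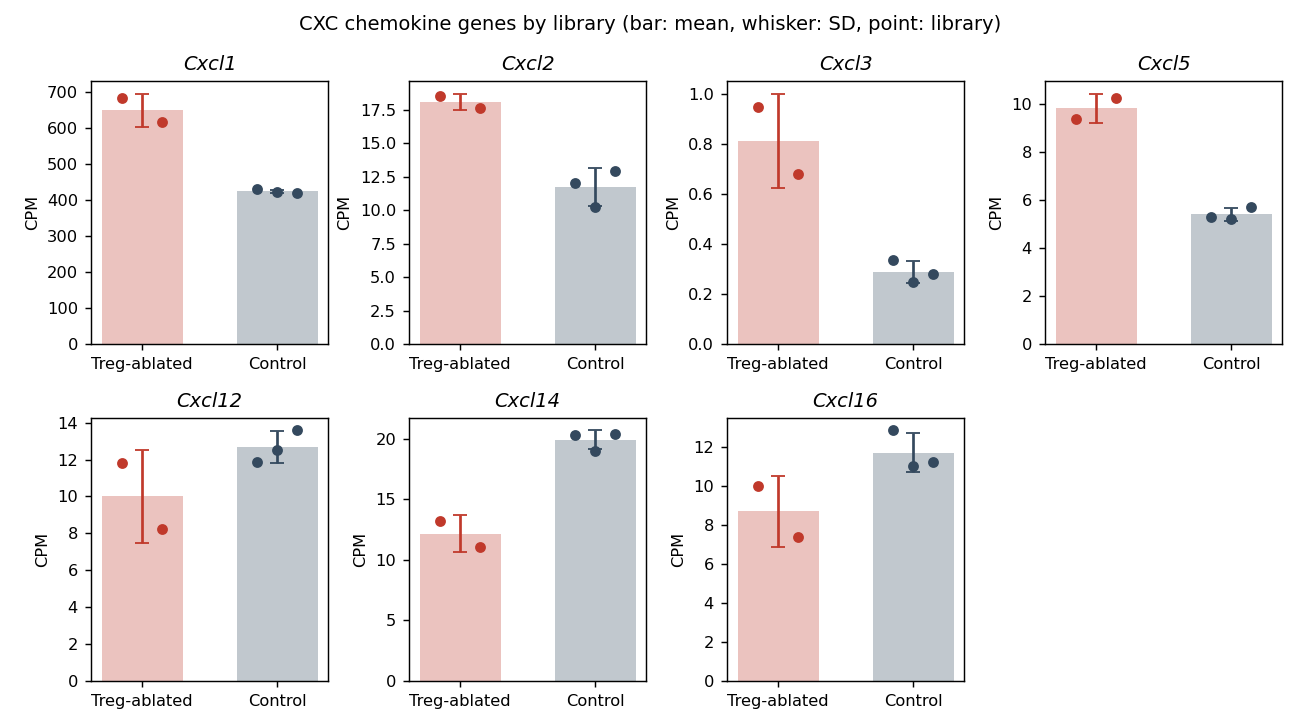
CPM of the 7 chemokine genes (vertical axes from 0, each on its own scale) in Treg-ablated and control libraries, with points for libraries, bars for means and whiskers for SDs. Cxcl1, Cxcl2, Cxcl3 and Cxcl5 lie higher in both Treg-ablated libraries and Cxcl12, Cxcl14 and Cxcl16 lower, Cxcl12 by a margin of 11.8 against 11.9 CPM between the nearest libraries.

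Cxcl1 (ENSMUSG00000029380, chr5:90891241-90893115, plus strand), the main neutrophil attractant that mouse stromal cells and macrophages release on injury or IL-1 signalling, was by far the most abundant member. It had 683 and 618 CPM in Treg-ablated libraries, against 431, 422 and 422 CPM in controls. The groups were well apart, and the controls lay close together. The means were 651 ± 46.2 CPM after ablation (SD, n = 2) and 425 ± 5.08 CPM in controls (SD, n = 3), which is 1.53-fold or 0.62 on the log2 scale (SE 0.0690, adjusted p = 0.000419). By CPM per kilobase of exon, Cxcl1 ranked 165 and 162 among all listed genes in Treg-ablated libraries and 239, 256 and 271 in controls.

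Cxcl2 (ENSMUSG00000058427, chr5:90903871-90905938, plus strand), a close relative that myeloid cells release within hours of stimulation, had 18.5 and 17.7 CPM in Treg-ablated libraries and 12.03, 10.2 and 12.96 CPM in controls. The groups did not overlap, although the controls were more spread than for Cxcl1. Its log2 fold change was 0.64 (SE 0.119, adjusted p = 0.00421), or 1.55-fold. The 95% interval of the log2 fold change, 0.374 to 0.898, contained that of Cxcl1, 0.463 to 0.768. The ratio of Cxcl1 to Cxcl2 in CPM, which does not depend on the scaling of libraries, was 36.9 and 35.0 after ablation and 35.8, 41.3 and 32.5 in controls, so the ratios overlapped.

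Cxcl5 (ENSMUSG00000029371, chr5:90759360-90761624, plus strand), an ELR chemokine of epithelium and activated stroma, had 9.39 and 10.3 CPM in Treg-ablated libraries and 5.31, 5.21 and 5.71 CPM in controls. Both groups were tight and far apart. The log2 fold change was 0.86 (SE 0.129, adjusted p = 0.00165), or 1.82-fold. Cxcl5 amounted to 1.37% and 1.66% of the Cxcl1 CPM in Treg-ablated libraries and to 1.23%, 1.23% and 1.35% in controls.

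Cxcl3 (ENSMUSG00000029379, chr5:90786103-90789600, plus strand), which also acts on CXCR2, was barely detected, with 15 and 9 counts in Treg-ablated libraries against 5, 5 and 4 counts in controls. That is 0.946 and 0.679 CPM in Treg-ablated libraries and 0.336, 0.250 and 0.279 CPM in controls, with no overlap. Its log2 fold change was 1.504 with a wide SE of 0.429 (adjusted p = 0.0273). It reached the filter's level of 0.671 CPM in the 2 Treg-ablated libraries and in 0 controls, so a gene kept in this way had to differ, and its call adds no weight to the other 3. The call ended without Treg-ablated replicate 1 (adjusted p = 0.232), Treg-ablated replicate 2 (0.0607) or control replicate 2 (0.0933), and DESeq2 gave no adjusted p for it. Of the 125-base stretches in the Cxcl3 transcripts, 0.893% also occur in Cxcl2 transcripts, as do 1.43% of those of Cxcl2 in Cxcl3, and the more abundant Cxcl2 rose as well. Whether shared reads contributed to the Cxcl3 value was not tested.

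**Figure D2:**
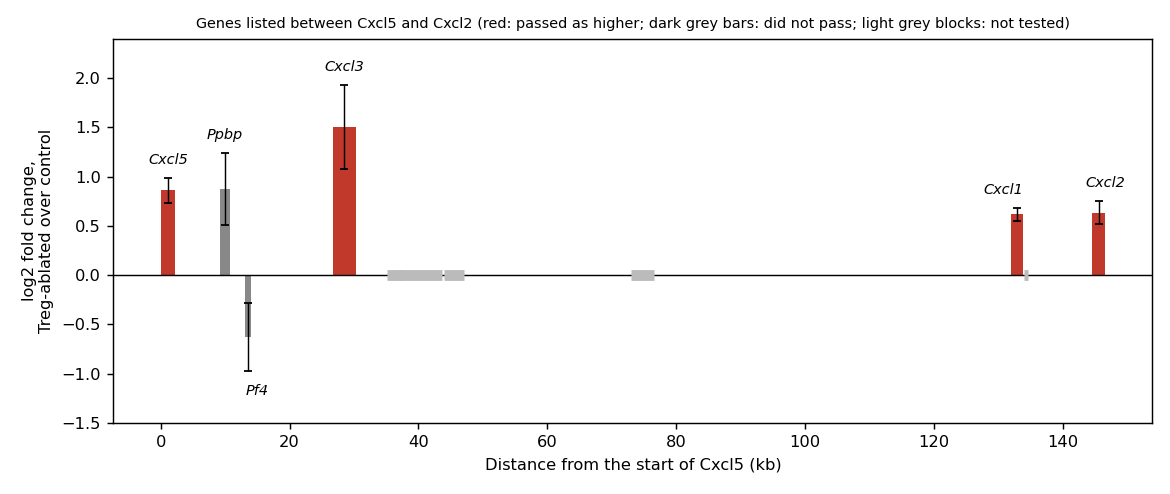
Log2 fold change, Treg-ablated over control (bars, with SE whiskers), of the genes between Cxcl5 and Cxcl2, placed by their distance in kb from the start of Cxcl5. The ELR genes at both ends and Cxcl3 passed as higher (red), Ppbp and Pf4 between them did not pass (dark grey), and the remaining genes were too low to test (light grey blocks).

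Within the same cluster, the platelet chemokine genes did not pass. Ppbp, the precursor of an ELR chemokine of platelets, had 0.946 and 1.66 CPM after ablation and 0.806, 0.551 and 0.766 CPM in controls (log2 fold change 0.87, SE 0.368, adjusted p = 0.105). Pf4, platelet factor 4, which macrophages also make, had 1.07 and 1.13 CPM after ablation and 1.81, 1.15 and 2.30 CPM in controls (log2 fold change −0.63, SE 0.348, adjusted p = 0.208). Cxcl15, the lung ELR chemokine of the mouse, had at most 2 counts in any library. Of the 11 genes listed in the cluster span, 6 were tested, and those that passed were the 4 members.

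Cxcl14 (ENSMUSG00000021508, chr13:56288647-56296551, minus strand), a homeostatic chemokine with no settled receptor, had 13.2 and 11.1 CPM in Treg-ablated libraries and 20.4, 19.0 and 20.4 CPM in controls. The controls were tight, and both Treg-ablated libraries lay well below them. The log2 fold change was −0.70 (SE 0.111, adjusted p = 0.00206). Relative to Cxcl1 in the same library, Cxcl14 amounted to 1.94% and 1.79% of the CPM after ablation and to 4.73%, 4.51% and 4.84% in controls.

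Cxcl12 (ENSMUSG00000061353, chr6:117168535-117181367, plus strand), which retains leukocytes and progenitors through CXCR4, had 11.8 and 8.22 CPM in Treg-ablated libraries and 11.9, 12.5 and 13.6 CPM in controls. Treg-ablated replicate 1 was almost level with the lowest control, and replicate 2 was well below. The log2 fold change was −0.33 (SE 0.150, adjusted p = 0.134), with a 95% interval of −0.657 to 0.0048. Without Treg-ablated replicate 1 it was −0.62 and passed (adjusted p = 0.0154), and without replicate 2 it was −0.10 (adjusted p = 0.670).

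Cxcl16 (ENSMUSG00000018920, chr11:70453983-70459984, minus strand), the membrane-bound ligand of CXCR6, had 9.96 and 7.39 CPM in Treg-ablated libraries and 12.8, 11.0 and 11.2 CPM in controls. The groups did not overlap. The log2 fold change was −0.41 (SE 0.146, adjusted p = 0.0590), with a 95% interval of −0.737 to −0.0928. The gene passed as lower with a filter on 1 count in any library (adjusted p = 0.0135), with an offset on gene length (0.0303) and without Treg-ablated replicate 1 (0.0150). Its exons overlap those of Zmynd15 on the opposite strand, and 13.3% of the 125-base stretches of Cxcl16 transcripts occur there too. The counting set no strand option, so reads of the overlap cannot be told apart. Zmynd15 had 22 and 14 counts after ablation and 31, 35 and 26 counts in controls (log2 fold change −0.60, SE 0.268, adjusted p = 0.125).

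**Figure D3:**
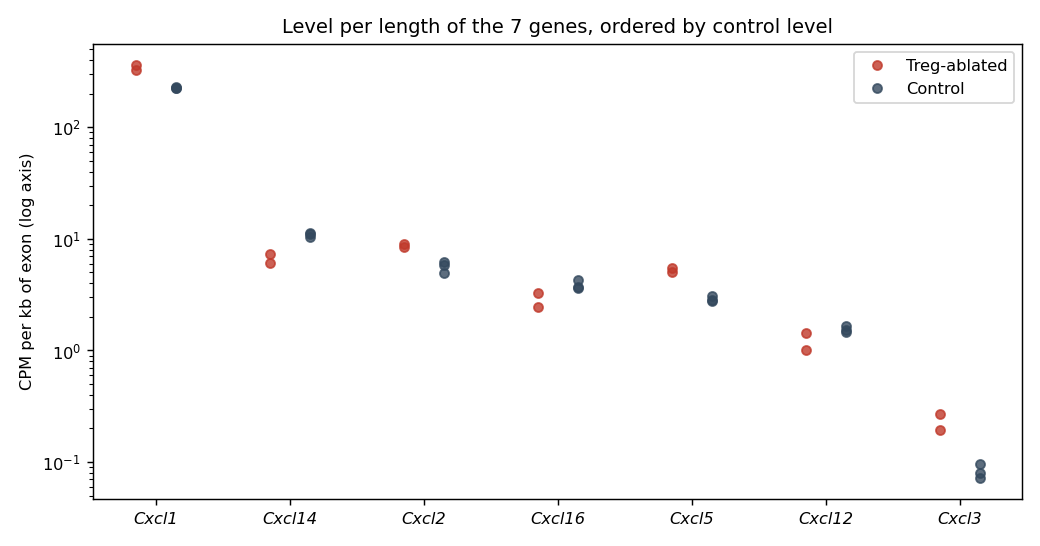
CPM per kilobase of exon (log axis) of the 7 genes in each Treg-ablated (left of each pair) and control library (right), ordered by their level in controls. Cxcl1 stands far above the rest in both groups, Cxcl2 lies above Cxcl14 after ablation and below it in controls, and Cxcl5 lies above Cxcl16 after ablation and below it in controls.

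Per kilobase of exon, the order of levels in Treg-ablated libraries was Cxcl1 (330 to 365 CPM per kb), Cxcl2 (8.54 to 8.96), Cxcl14 (6.08 to 7.26), Cxcl5 (5.04 to 5.51), Cxcl16 (2.45 to 3.30), Cxcl12 (1.01 to 1.44) and Cxcl3 (0.194 to 0.270). In controls it was Cxcl1 (225 to 230), Cxcl14 (10.4 to 11.2), Cxcl2 (4.94 to 6.27), Cxcl16 (3.65 to 4.25), Cxcl5 (2.80 to 3.07), Cxcl12 (1.45 to 1.66) and Cxcl3 (0.0716 to 0.0960). Neighbours in either order did not overlap between libraries of the group. An ELR gene and a homeostatic gene thus changed places in 2 positions, Cxcl2 with Cxcl14 and Cxcl5 with Cxcl16. The exon length used for Cxcl12, 8176 bases, joins all its listed exons, which lowers its value per kilobase relative to a single transcript.

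**Figure D4:**
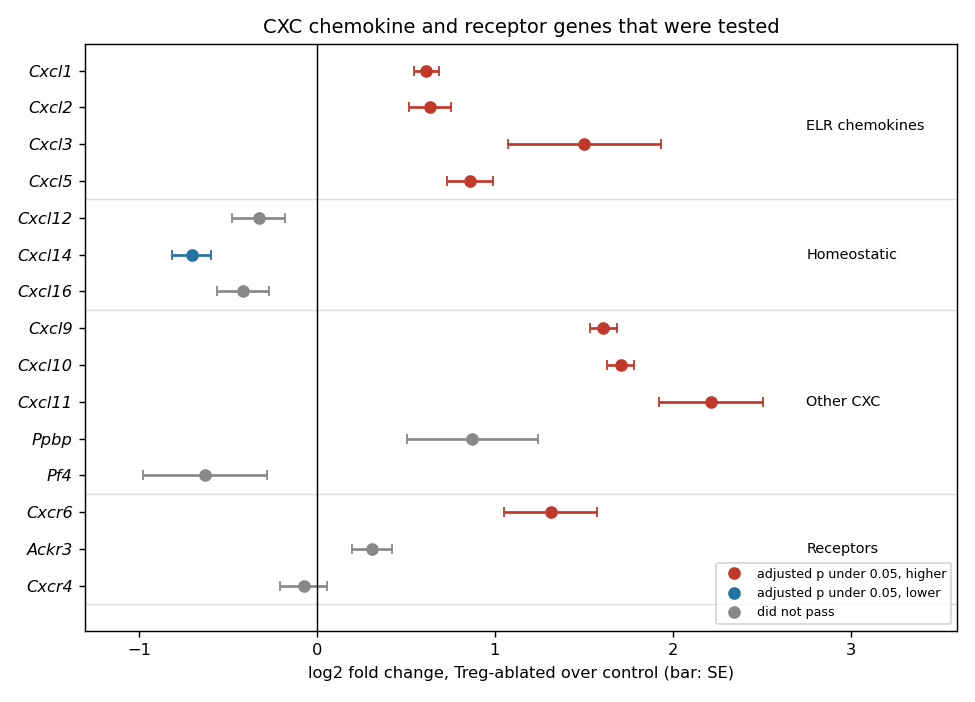
Log2 fold change, Treg-ablated over control, with SE bars, of the CXC chemokine and receptor genes that were tested, coloured by whether they passed as higher (red), lower (blue) or not (grey). The ELR genes sit between 0.62 and 1.504, the homeostatic members between −0.70 and −0.33, and the CXCR3 ligands Cxcl9, Cxcl10 and Cxcl11 between 1.61 and 2.22.

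Of the receptors for these chemokines, Cxcr6 was the only one of the 3 tested that passed. Cxcr6, the CXCL16 receptor of activated T cells and NKT cells, had 2.46 and 2.87 CPM in Treg-ablated libraries and 1.28, 0.851 and 1.11 CPM in controls (log2 fold change 1.31, SE 0.261, adjusted p = 0.00578), while its ligand gene did not pass. Ackr3, which scavenges CXCL12, had 15.005 and 14.4 CPM after ablation and 10.8, 12.6 and 12.1 CPM in controls. The groups did not overlap, and its log2 fold change of 0.31 (SE 0.1097, adjusted p = 0.0603) passed with scaling by library size alone (adjusted p = 0.0460) and with the gene length offset (0.0353). Cxcr4, the signalling receptor of CXCL12, had 6.68 and 6.41 CPM after ablation and 6.85, 7.06 and 6.76 CPM in controls, with a log2 fold change of −0.07 and a 95% interval of −0.362 to 0.213 (adjusted p = 0.710).

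The receptors of the ELR chemokines were almost without reads. Cxcr2, their main receptor, had 2 and 4 counts after ablation and 2, 4 and 0 counts in controls, and Cxcr1 had 0 in every library. At these totals 3 counts, the limit that a count of 0 allows for counting error, correspond to 0.189 and 0.226 CPM in Treg-ablated libraries and to 0.202, 0.150 and 0.209 CPM in controls. Ackr1, a decoy that binds ELR chemokines on red cells and venules, had at most 4 counts. The sort excluded Ly6G+ cells, and Ly6g, the neutrophil surface marker behind that gate, had 3 and 1 counts after ablation and 0, 3 and 0 counts in controls.

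Other CXC chemokine genes serve as a measure of size. The CXCR3 ligand genes Cxcl9 and Cxcl10, which attract effector T cells, rose by 1.61 (SE 0.0759, adjusted p = 2.05e-06) and by 1.71 (SE 0.0736, adjusted p = 1.35e-06) on the log2 scale, and the less abundant Cxcl11 by 2.22 (SE 0.292, adjusted p = 0.000918). The intervals of the first 2, 1.44 to 1.78 and 1.54 to 1.87, lay above those of Cxcl1, Cxcl2 and Cxcl5. Cxcl13 and Cxcl17 had at most 2 counts.

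Of the listed genes of cytokines and their receptors, among them inducers of ELR chemokines, 11 were tested. Of these, 2 passed as higher (Csf3 and Il6), 1 as lower (Il17rc), and 8 did not pass. Their median log2 fold change was 0.10. The receptor genes Il1r1 (log2 fold change 0.10), Tnfrsf1a (−0.09) and Il17ra (−0.14) were among those that did not pass. For this list and those below, the shares over all genes tested were 13.5% higher and 12.3% lower. Csf3, which encodes the neutrophil growth factor G-CSF, had 3.40 and 3.55 CPM after ablation and 0.806, 1.15 and 1.32 CPM in controls (log2 fold change 1.66, SE 0.245, adjusted p = 0.00151). Il6, whose product is often made together with CXCL1, had 5.11 and 5.43 CPM after ablation and 2.89, 2.80 and 3.41 CPM in controls (log2 fold change 0.80, SE 0.171, adjusted p = 0.00809), and did not pass without control replicate 2 (adjusted p = 0.0525). Both groups were apart for these genes, at low levels. Il17rc, a subunit of the IL-17 receptor, had a log2 fold change of −0.30 (adjusted p = 0.0202), but the adjusted p was 0.124 with a GC content offset, 0.122 without Treg-ablated replicate 2 and 0.105 without control replicate 2.

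Il1b and Tnf, both chosen after their values were seen, encode the classical inducers of Cxcl1 and did not pass. Il1b had 38.1 and 30.9 CPM after ablation and 38.9, 38.2 and 38.1 CPM in controls (log2 fold change −0.15, 95% interval −0.356 to 0.0586). Tnf had 2.58 and 2.79 CPM after ablation and 1.55, 2.85 and 2.58 CPM in controls (log2 fold change 0.18, 95% interval −0.403 to 0.769, and −0.023 without control replicate 1). Lif, a cytokine of the IL-6 family, had a log2 fold change of 0.15 (adjusted p = 0.185) and passed without Treg-ablated replicate 1 (log2 fold change 0.28, adjusted p = 0.0394). Il17a had 0 counts in every library.

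Of 10 listed genes of NF-κB and IL-17 feedback, 5 passed, each as higher, and 5 did not pass. The log2 fold change was above 0 for 7 of the 10, with a median of 0.30. Nfkbia, which encodes the inhibitor IκBα, had 977 and 869 CPM after ablation and 531, 570 and 602 CPM in controls (log2 fold change 0.70, SE 0.0800, adjusted p = 0.000449). Nfkbiz, whose product IκBζ helps to switch on ELR chemokine genes after IL-17, had 356 and 370 CPM after ablation and 238, 225 and 240 CPM in controls (log2 fold change 0.63, SE 0.0648, adjusted p = 0.000269). Tnfaip3, the feedback inhibitor A20, rose by 0.70 (SE 0.0777) and Nfkb1 by 0.35 (SE 0.0633), with adjusted p of 0.000403 and 0.00361. The size of the Nfkbia, Nfkbiz and Tnfaip3 changes lay within the intervals of those of Cxcl1 and Cxcl2. So did the changes of Mmp12 (0.68) and Areg (0.70) from other lists, and a link between any of these genes was not tested.

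ELR chemokine mRNAs carry AU-rich elements and are short-lived. Of 8 listed genes for proteins that shorten or lengthen the life of such mRNAs, 6 passed, each as higher, with a median log2 fold change of 0.30. Without control replicate 2, 3 passed as higher. Zfp36, which encodes the decay factor tristetraprolin, had 543 and 557 CPM after ablation and 396, 406 and 398 CPM in controls (log2 fold change 0.46, SE 0.0631, adjusted p = 0.0011). Its relative Zfp36l2 was higher by 0.46 (adjusted p = 0.00565), as were the AU-rich element binding protein gene Hnrnpd by 0.40 (0.00828) and the stabilising factor Elavl1 by 0.29 (0.0099). Hnrnpd did not pass without control replicate 2 (0.0571), nor Elavl1 with the GC content offset (0.0901). Decay factors and a stabilising factor were thus both among those that rose.

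Among 10 genes of proteases that trim or release these chemokines, 8 were tested, 3 passed as higher and 1 as lower. Mmp2, whose product cleaves and inactivates CXCL12, had 22.8 and 22.3 CPM after ablation and 39.2, 42.5 and 41.0 CPM in controls (log2 fold change −0.86, SE 0.0820, adjusted p = 0.000202). Mmp12, the macrophage metalloelastase, had 44.1 and 45.8 CPM after ablation and 28.3, 26.7 and 29.3 CPM in controls (log2 fold change 0.68, SE 0.0779, adjusted p = 0.00046). The 2 groups did not overlap for either gene. Mmp9 and Mmp14 were higher by 0.46 and 0.23 (adjusted p = 0.0280 and 0.0325). Without control replicate 1 Mmp9 had an adjusted p of 0.0538 and without Treg-ablated replicate 1 one of 0.0561, and Mmp14 lost its call whichever library was left out (adjusted p between 0.0570 and 0.142).

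Neutrophil markers were low in both groups, and their part in the results was not tested. The 18 markers summed to 12.6 to 14.9 CPM after ablation and 10.7 to 12.2 CPM in controls, and 6 were abundant enough to test. Retnlg and Lcn2 passed as higher (log2 fold changes 0.60 and 1.07, adjusted p = 0.0283 and 0.0204) and Cd177 as lower (−2.72, adjusted p = 0.00507), but DESeq2 called 0 of them in either direction, and in edgeR 0 were higher when control replicate 1, control replicate 2 or Treg-ablated replicate 1 was left out. Cd177 had 2 and 2 counts after ablation against 12, 23 and 12 counts in controls, and DESeq2 gave no adjusted p for it. Cd177 reached the filter's level of 0.671 CPM in the controls alone. A gene kept in this way had to differ, so its call as lower adds no weight. Ceacam10 was at 0 in every library. The 18 epithelial and tumour markers summed to 314 to 364 CPM after ablation and 330 to 354 CPM in controls, ranges that overlapped. Of 7 tested, Areg alone passed, as higher, while Krt18 had a log2 fold change of −0.13 (adjusted p = 0.244), and one of 0.0091 with the GC content offset. The 11 endothelial and pericyte markers summed to 32.2 to 33.1 CPM after ablation and 35.5 to 37.1 CPM in controls, and 0 of the 8 tested passed in edgeR, DESeq2 or limma-voom, with 0 at an unadjusted p under 0.05.

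The genes whose profile over the 5 libraries was most like that of each member were found by the root mean square difference of centred log2 CPM, among 9226 or 9227 genes with a mean log2 CPM of at least 3. The nearest to Cxcl1 were Ppp3cc and Fam133b, at 0.0179 and 0.0236, and 231 genes lay within 0.1. The nearest to Cxcl2 were Srsf5 and Zrsr2 (0.0504 and 0.0526), to Cxcl5 Irf1 and H2-Q6 (0.0736 and 0.0742), and to Cxcl3 Pdgfa and Batf2 (0.0480 and 0.0647). The nearest to Cxcl14 were Inka1 and Dhcr7 (0.0454 and 0.0471), to Cxcl12 Cyb561d2 and Fbxl15 (0.0288 and 0.0362), and to Cxcl16 Tyrobp and Itgam (0.0531 and 0.0545). Within 0.1 lay 107 genes for Cxcl12, 44 for Cxcl2, 24 for Cxcl14, 23 for Cxcl16, 16 for Cxcl5 and 2 for Cxcl3. With so few libraries, the names describe these libraries only.

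**Figure D5:**
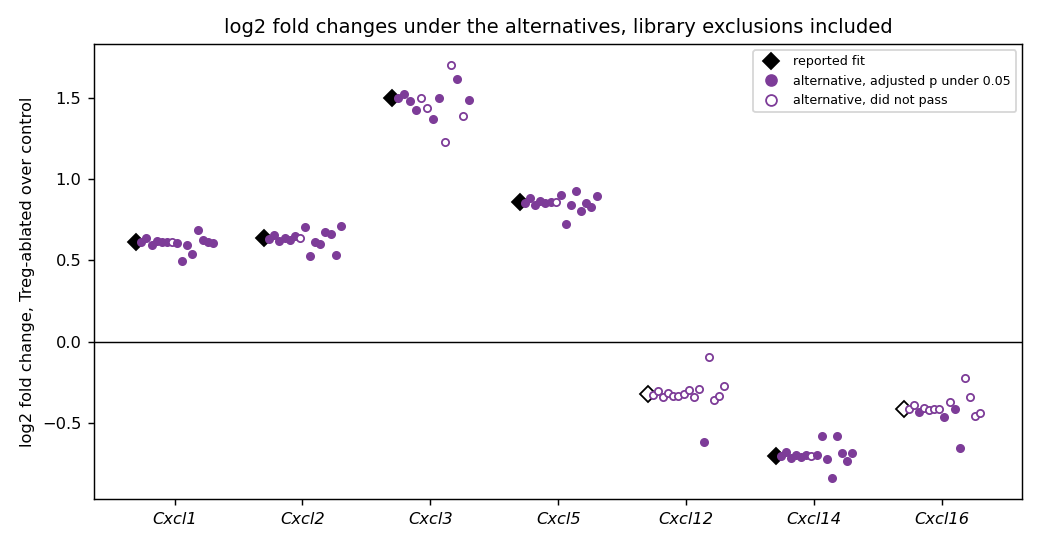
Log2 fold change, Treg-ablated over control, of the 7 genes in the reported fit (diamonds) and under the alternatives (circles, filled where the adjusted p was under 0.05). Each gene keeps its sign throughout, Cxcl1, Cxcl2, Cxcl5 and Cxcl14 lose their call only in the test against a fold of 1.5, and the range is widest for Cxcl12, between −0.62 and −0.10.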

How the data were processed

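The 5 libraries were grouped by their titles, 2 Treg-ablated and 3 control. The deposited values are raw counts of fragments over the exons of each gene, made by the authors with featureCounts 1.6.2 and a filtered GRCm38 annotation of Ensembl 83, per the file headers. The recorded command sets no strand option and no option for reads with several matches, although the labels describe a stranded kit. Trimmomatic 0.33, FastQC 0.11.5, DESeq2 1.16.1 and Subread 1.6.2 are listed in the submitters' processing notes.

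Here, filterByExpr chose the genes, TMM set the scaling and the quasi-likelihood test of edgeR 4.0.16 in R 4.3.3 was run over 14580 genes, Treg-ablated against control without a block, at an adjusted p under 0.05. The SE is the log2 fold change over the square root of F, and 95% intervals use the t quantile at the fit's degrees of freedom. Symbols were joined by Ensembl identifier, and GC content came from GENCODE M21 transcripts for 99.7% of the genes tested. The 7 genes and all lists were chosen with earlier results of these data known. Named genes were the 7, their receptors, other CXC chemokines, the gate genes and up to 4 genes per further list with the smallest p. Dcn is named because it was the only fibroblast marker that was higher. The 15 alternatives were RLE factors, library size alone, 2 filters, DESeq2 1.42.0, limma-voom (limma 3.58.1), the replicate block, a null fold of 1.5, GC and length offsets and leaving out each library. Where a Treg-ablated library is left out, the other is assumed to vary like the controls. The test was checked on simulated counts. No pair of replicates agreed within sampling noise (chi-square per degree of freedom 3.88 to 7.24). Floors cover counting error only.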

Additional observations from a re-analysis of the deposited data

How the results depend on the processing

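Each of the 7 genes kept its direction under every alternative run, RLE factors and library size alone included. With a null fold of 1.5, the calls over all genes were 98 higher and 23 lower, and 0 members were called in either direction; the fold changes, 0.62 for Cxcl1, 0.64 for Cxcl2, 1.504 for Cxcl3, 0.86 for Cxcl5 and −0.70 for Cxcl14, are those of the reported fit, which this test sets against a stricter null. With the replicate number as a block, 1296 genes were higher and 1116 lower, 2 members were lower, Cxcl3 did not pass (1.44, adjusted p = 0.0613) and Cxcl16 did (−0.46, adjusted p = 0.0462). With the same block, 3 genes of the mRNA decay and stabilising list and 1 protease gene were higher, and Il17rc (adjusted p = 0.0904), Elavl1 (0.105), Mmp9 (0.0738) and Mmp14 (0.255) did not pass. The block changed no other call among the named genes. The numbers were not taken to pair the libraries, as deviations of same-numbered libraries correlated at −0.226 and −0.0213. Members called lower also numbered 2 with a filter on 1 count in any library (Cxcl16 −0.43) and with the gene length offset (Cxcl16 −0.42). Leaving out 1 library gave 812 to 1687 genes higher and 554 to 1538 lower, with the lowest numbers without control replicate 2, and 1 to 3 members lower, the 3 when Treg-ablated replicate 1 was left out. The log2 fold changes then ranged from 1.23 to 1.71 for Cxcl3, from −0.62 to −0.10 for Cxcl12, from −0.66 to −0.22 for Cxcl16 and from −0.023 to 0.38 for Tnf. Krt18 was at 0.0091 with the GC content offset. Where no cause is named, the cause was not tested. Cxcl3 was not kept by the filter on 1 CPM and got no adjusted p from DESeq2. The 2 nearest genes of each member were the same with a prior count of 0.5. Depth limits Cxcl3 and the receptors Cxcr1, Cxcr2 and Ackr1.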
